A study of Mus musculus with 4 samples.

Results

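The genes described here encode the proteasome, its regulators and its assembly factors. They were taken as the protein-coding genes of GENCODE mouse release M21 whose symbol begins with Psm, a letter from a to g and a digit. This rule used the symbol and no measured value, and it found 50 genes among the 21945 protein-coding genes and 48858 genes of any type in the files. Of 54 matching symbols, the other 4 were processed pseudogenes of Psmb5, Psmb6 and Psmb7. By role, 8 genes belong to the alpha ring of the 20S core, 7 to its standard beta ring and 4 to the inducible and thymic catalytic subunits. A further 9 belong to the base of the 19S particle, 8 to its lid, 4 to the 11S activators, 2 to other regulators and 7 to assembly chaperones. Psmc3ip is in the set by its symbol only. It encodes HOP2, a protein of meiotic recombination that was named for binding a 19S ATPase, and it is kept apart below.

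The proteasome degrades proteins that carry ubiquitin chains. Its 20S core is a barrel whose outer alpha rings gate the entrance and whose inner beta rings hold the cutting subunits beta1, beta2 and beta5, while the 19S particle binds and removes the chains and unfolds the substrate with a ring of ATPases. Lymphocytes, and other cells exposed to interferon gamma, replace the standard cutting subunits by the inducible ones of the immunoproteasome and make the 11S activator PA28, both of which are linked to the supply of peptides for MHC class I.

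RNA was measured in 4 libraries of mouse naive CD4 T cells, 2 from DKO and 2 from WT mice. The DKO mice (Btg1f/f Btg2f/f-CD4-Cre) had loxP-flanked alleles of Btg1 and Btg2 and a Cre recombinase driven by Cd4 regulatory sequences, which is active from the thymus onward in the T lineage. The WT mice (Btg1f/f Btg2f/f) were littermates with the same loxP-flanked alleles and no Cre. Cells had been sorted as TCRb+CD4+CD25-CD62LhiCD44low, and ribosomal RNA was depleted from total RNA. BTG1 and BTG2 recruit the CCR4-NOT deadenylase, which shortens poly(A) tails, and the title of the series ties their loss to mRNA stability and T cell quiescence. The labels name pairs of WT and DKO mice but do not tie a library to an animal, so the p-values measure the spread between these libraries, which may be technical.

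Total estimated counts were 16567226 and 17827631 in the DKO libraries and 14970076 and 13889894 in the WT libraries. Protein-coding genes took 44.7% and 48.9% of them in DKO, against 38.9% and 35.7% in WT. The deleted genes fit the labels: Btg1 had 103 and 125 estimated counts in DKO and 7378 and 5443 in WT, and Btg2 had 5 and 7 in DKO and 1295 and 1067 in WT. All 8 T cell markers listed passed the low-count filter, and Trac, the T cell receptor alpha constant gene, was at 350.4 and 280.5 CPM in DKO and 254 and 355 CPM in WT. CPM here are counts relative to the TMM-scaled library size. The B cell marker Iglc2, the myeloid marker S100a8, the NK marker Ncr1 and the stromal marker Col3a1 had 0 counts in every library. Summed B cell markers reached 3.73 and 2.88 CPM in DKO and 2.52 and 4.34 CPM in WT, and Cd74 was the highest of them, at 2.07 and 1.39 CPM in DKO and 1.66 and 3.99 CPM in WT. Cd79a, the other B cell marker tested, had 1.06 and 1.30 CPM in DKO and 0.721 and 0.0867 CPM in WT, with the DKO libraries the higher ones. The log2 fold changes were −0.70 for Cd74 and 1.49 for Cd79a, and neither was called. Summed myeloid markers reached 2.60 and 4.69 CPM in DKO and 4.83 and 3.56 CPM in WT, with Itgam the highest per length. Erythroid markers such as Hbb-bs summed to at most 1.02 CPM, and of the stromal and endothelial markers Pecam1 alone gave 128 and 142 CPM in DKO and 162 and 133 CPM in WT. Markers of CD8 T and NK cells summed to 14.9 and 17.1 CPM in DKO and 9.45 and 10.1 CPM in WT, most of it Cd8b1. Of these 7 markers, 2 were tested, Cd8b1 and Klrd1. Both had an unadjusted p under 0.05 by edgeR's quasi-likelihood test, against 8.19% of all genes tested. Cd8a, Nkg7, Klrb1c, Gzma and Ncr1 did not pass the low-count filter. Cd8a had 0.0591 and 0.232 CPM in DKO and 0.433 and 0.0867 CPM in WT. Markers of regulatory T cells summed to 35.8 and 58.8 CPM in DKO and 16.01 and 16.5 CPM in WT, and 5 of the 6 had both DKO libraries above both WT libraries, against 19.8% of all genes tested. The same number had an unadjusted p under 0.05 by edgeR's quasi-likelihood test, against 8.19% of all genes tested. The log2 fold changes of the 6 lay between 0.86 for Tnfrsf9 and 2.84 for Nrp1, the second with an adjusted p of 0.0935 by the same test. The most abundant of them per length, Tnfrsf4, had a log2 fold change of 1.31 with an adjusted p of 0.188 by edgeR's quasi-likelihood test. In bulk RNA, more cells of a type and more RNA per cell cannot be told apart, and the part of these markers in the proteasome values was not tested.

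None of the proteasome genes passed the test between genotypes. Their estimates were small: the log2 fold changes of the 49 tested members had a median of 0.04, and 46 of them had a 95% interval that lay within 2-fold in both directions. Those whose interval went beyond 2-fold were Psmb11, Psmg3 and Psmc3ip, all of them weakly expressed. Psma8, the alpha subunit of the spermatogenic proteasome, had 0 estimated counts in all 4 libraries and was not tested. A count of 0 allows up to 0.181 and 0.168 CPM of the library total in DKO and up to 0.2 and 0.216 CPM in WT, for counting error only.

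At a Benjamini-Hochberg adjusted p of 0.05 over 12863 genes (edgeR's quasi-likelihood test), 0 members were called higher in DKO and 0 lower. Over all genes tested the calls were 7 higher (0.0544%) and 9 lower (0.07%), or 0.124% in either direction. The smallest adjusted p among members was 0.691 for Psmc2, and 0 members had an unadjusted p under 0.05, against 8.19% of all genes tested. DESeq2 also called 0 members. The estimate was positive for 28 members and negative for 21. Over all genes tested, 48.1% of estimates were positive, with a median log2 fold change of −0.01 and quartiles of −0.26 and 0.19. The DKO values were both above the WT values for 12 members (24.5%, against 19.8% of all genes tested) and both below them for 2 (4.08%, against 18.8%). For the other 35 the groups overlapped. Of the 10733 protein-coding genes tested, 2396 had both DKO values above the WT values and 1764 had both below.

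The scaling between libraries sets where 0 lies. When libraries were scaled by total counts the median of all genes moved to 0.33 and the calls over all genes became 194 higher and 66 lower. With 5 RNA polymerase III transcripts as the scale, the median was 0.90 and the calls were 472 higher and 22 lower. Unadjusted p-values under 0.05 were then reached by 17 and 34 members, and the smallest adjusted p among members was 0.0825 with total counts and 0.0539 with the polymerase III scale. No member was called under either scale by edgeR's quasi-likelihood test. Relative to the median of all genes, 30 of 49 members were higher in DKO with the TMM scale, 30 with total counts and 33 with the polymerase III scale. With protein-coding genes only, the number was 27.

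Summed over all 50 genes, the proteasome set stood at 1471 and 1377 CPM in DKO and at 1230 and 1536 CPM in WT. The means were 1424 ± 66.1 CPM in DKO and 1383 ± 216 CPM in WT (SD, n = 2 each), so both DKO libraries lay between the WT libraries. No p is given for such sums, since the smallest that exact two-sided permutation of 2 libraries against 2 allows is 0.333. As a share of protein-coding counts, the set took 0.336% and 0.341% in DKO and 0.293% and 0.358% in WT.

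**Figure D1:**
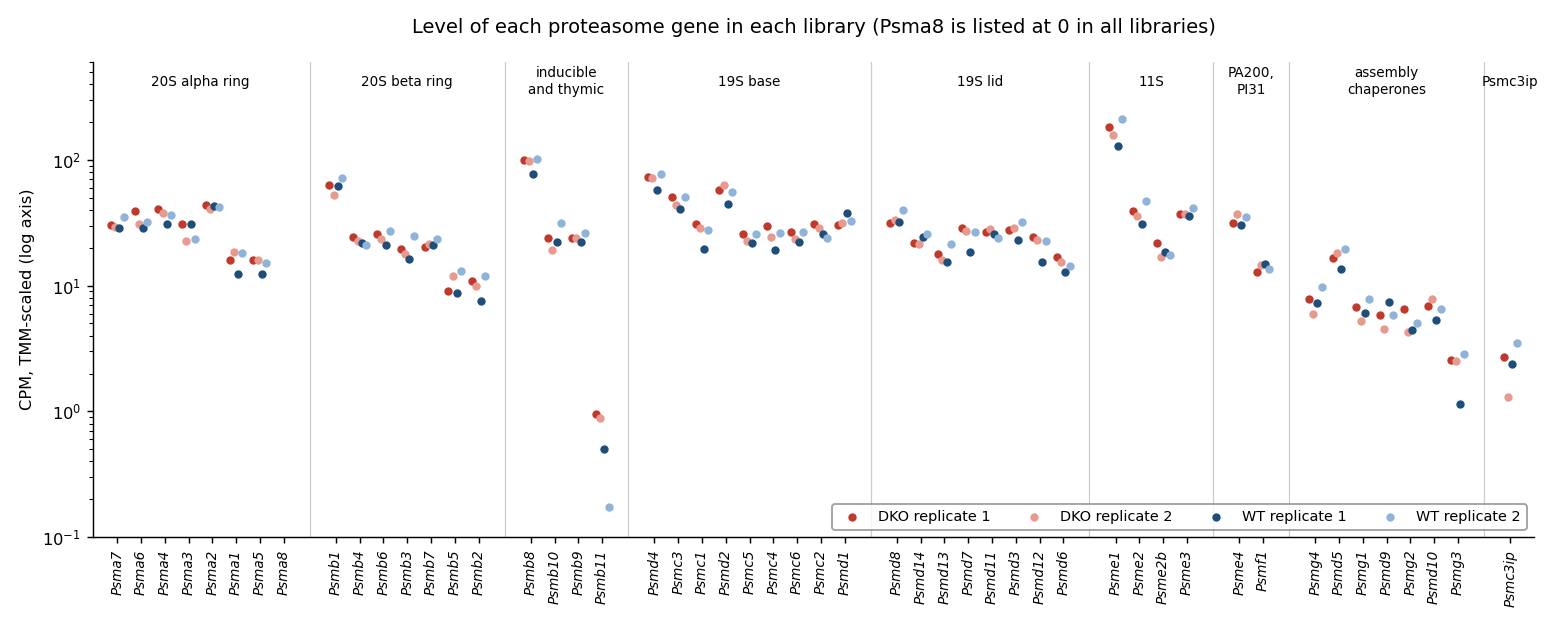
Level of each gene in each library in CPM on a log axis, with 1 point per library (DKO red, WT blue), grouped by the role of the protein. Most subunits lie between 10 and 100 CPM, Psme1 is the highest in every library, and WT replicate 1 is the lowest of the 4 libraries for 30 of the 49 tested genes.

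**Figure D2:**
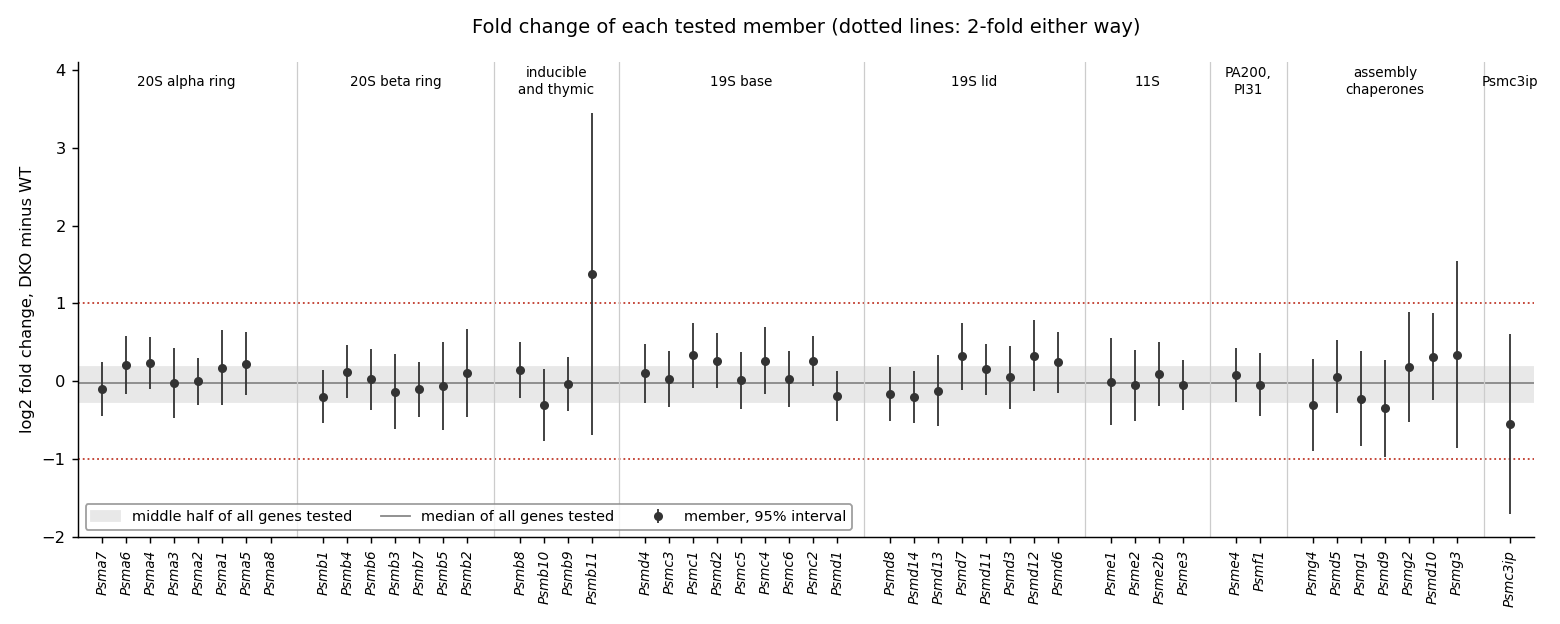
Log2 fold change (DKO minus WT) of the 49 tested genes with 95% intervals, beside the quartiles and the median of all 12863 genes tested. Every interval spans 0, and those of Psmb11, Psmg3 and Psmc3ip reach past 2-fold.

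The alpha ring genes encode the subunits that gate the core and dock its regulators. Psma4, which encodes alpha3, had 41.0 and 37.99 CPM in DKO and 30.9 and 36.5 CPM in WT. Both DKO values lay above both WT values, and the log2 fold change was 0.23 ± 0.15 (SE) with an adjusted p of 0.745 by edgeR's quasi-likelihood test. Psma5, which encodes alpha5, had 15.97 and 16.1 CPM in DKO and 12.4 and 15.0 CPM in WT, again without overlap. Psma6, which encodes alpha1, had 39.2 and 30.7 CPM in DKO and 28.6 and 31.8 CPM in WT, and here the groups overlapped. Psma7, which encodes alpha4 and was the most abundant alpha gene per length, had 30.3 and 29.4 CPM in DKO and 28.6 and 35.4 CPM in WT. The 7 tested alpha genes had log2 fold changes of −0.10 to 0.23 with a median of 0.17, and 4 of them were positive.

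The standard beta ring genes encode the structural and cutting subunits of the inner rings. Psmb1, which encodes the non-catalytic beta6, was the most abundant of them per length, with 63.3 and 52.9 CPM in DKO and 62.1 and 71.3 CPM in WT. Its log2 fold change was −0.20 ± 0.15 (SE). Psmb2, which encodes beta4, had 10.8 and 9.97 CPM in DKO and 7.5 and 11.9 CPM in WT. Psmb4, which encodes beta7, had 24.5 and 22.6 CPM in DKO and 22.0 and 21.2 CPM in WT, so the DKO libraries were the higher ones. That order rests on counts without length: with the effective lengths as an offset, the log2 fold change of Psmb4 relative to all genes was −0.38. The 7 standard beta genes ranged from −0.20 to 0.13 with a median of −0.06.

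The 3 cutting subunits of the standard core and their inducible counterparts form pairs at the same place in the ring. At the beta5 place, with chymotrypsin-like activity, standard Psmb5 had 9.05 and 11.8 CPM in DKO and 8.80 and 13.1 CPM in WT. Psmb5 (ENSMUSG00000022193) spans chromosome 14, 54614119 to 54618022, on the minus strand of GRCm38. Inducible Psmb8 (LMP7; ENSMUSG00000024338; chromosome 17, 34197721 to 34201454, plus strand) had 99.4 and 97.6 CPM in DKO and 77.0 and 102 CPM in WT. At the beta1 place, standard Psmb6, whose product has caspase-like activity, had 25.7 and 23.5 CPM in DKO and 20.9 and 27.4 CPM in WT. Inducible Psmb9 (LMP2) had 23.8 and 23.7 CPM in DKO and 22.4 and 26.4 CPM in WT. Each of these genes had a DKO range that overlapped the WT range. At the beta2 place, with trypsin-like activity, standard Psmb7 had 20.1 and 21.5 CPM in DKO and 21.1 and 23.6 CPM in WT. Inducible Psmb10 (MECL-1) had 24.1 and 19.2 CPM in DKO and 22.1 and 31.3 CPM in WT. Its log2 fold change of −0.30 (95% interval −0.77 to 0.16) was the most negative of the 6, with an adjusted p of 0.765 by edgeR's quasi-likelihood test. For the others the log2 fold changes were 0.14 for Psmb8, 0.03 for Psmb6, −0.04 for Psmb9, −0.06 for Psmb5 and −0.10 for Psmb7.

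Psmb11 encodes beta5t, the cutting subunit of the thymoproteasome in cortical epithelial cells of the thymus. It had 16 and 19 estimated counts in DKO and 7 and 2 in WT, which is 0.946 and 0.881 CPM in DKO and 0.505 and 0.173 CPM in WT. The DKO libraries were the higher ones, and the log2 fold change of 1.38 had a 95% interval of −0.69 to 3.45 and an adjusted p of 0.756 by edgeR's quasi-likelihood test. Psmb11 lies 3.41 kb from Psmb5 on chromosome 14. Relative to the median of the 14 expressed core subunits per length, it stood between 0.00154 and 0.00744 in the 4 libraries.

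Standard and inducible cutting subunits are known to be controlled apart, the standard ones through the factor NRF1 at antioxidant response elements and the inducible ones through interferon-linked factors. The RefSeq start sites of Psmb5, Psmb8 and Psme1 on GRCm38.p6 are shown with 250 bases before and 50 after, because these genes are a standard subunit, its inducible counterpart and the most abundant member. Capitals mark a match to the antioxidant response element TGACNNNGC in Psmb5 (chr14:54617946-54618245, minus strand). They mark a match to the gamma-activated site TTCNNNGAA in Psmb8 (chr17:34197945-34198244, plus strand). In Psme1 (chr14:55578244-55578543, plus strand) they mark a match on the other strand to the interferon-stimulated response element, 2 GAAA blocks set 2 bases apart, which lies after the start site. The stretches of Psmb8 and Psme1 lie inside the genes as annotated in GENCODE M21, which begin at 34197721 and 55578123.
Psmb5: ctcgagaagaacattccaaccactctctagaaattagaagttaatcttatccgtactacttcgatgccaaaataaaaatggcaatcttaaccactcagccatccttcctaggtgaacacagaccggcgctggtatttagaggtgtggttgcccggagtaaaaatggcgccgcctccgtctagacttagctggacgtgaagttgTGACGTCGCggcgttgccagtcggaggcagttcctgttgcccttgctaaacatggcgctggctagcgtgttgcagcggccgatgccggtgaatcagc
Psmb8: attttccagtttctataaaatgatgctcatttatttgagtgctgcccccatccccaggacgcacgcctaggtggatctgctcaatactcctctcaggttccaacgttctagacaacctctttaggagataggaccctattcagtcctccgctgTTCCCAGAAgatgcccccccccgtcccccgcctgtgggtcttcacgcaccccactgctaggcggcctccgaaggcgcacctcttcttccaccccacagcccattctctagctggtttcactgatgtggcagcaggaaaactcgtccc
Psme1: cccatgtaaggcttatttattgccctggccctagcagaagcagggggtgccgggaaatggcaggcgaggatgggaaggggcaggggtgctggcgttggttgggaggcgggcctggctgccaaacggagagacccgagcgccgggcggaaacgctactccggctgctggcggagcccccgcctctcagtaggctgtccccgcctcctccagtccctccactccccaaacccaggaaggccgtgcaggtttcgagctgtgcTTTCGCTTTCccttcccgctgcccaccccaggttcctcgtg

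The RefSeq table held such a window for 42 of the 50 genes, and both strands of each were searched. TGACNNNGC was found in 6 of the 42 (14.3%), against 12.5% of all 27025 promoter windows of the same length. TTCNNNGAA was found in 3 (7.14%), against 8.47%, and the interferon-stimulated response element in 5 (11.9%), against 3.49%. The 5 with the latter were Psmb3, Psmd4, Psmd9, Psme1 and Psmg4, and no inducible cutting subunit was among them. An ETS-type motif, CCGGAAGT, was found in 8 (19%), against 4.0% of all windows, and 5 of these 8 belong to 19S genes, namely Psmc1, Psmc2, Psmd6, Psmd12 and Psmd13. A match is a run of letters in the window and not a binding site.

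The 19S genes had the highest share of positive estimates among the groups, although none was called. In the base, 8 of 9 log2 fold changes were positive with a median of 0.10, and in the lid 5 of 8 were positive with a median of 0.10. Positive estimates made up 48.1% of all genes tested and 52.7% of the protein-coding genes tested. Without overlap, the DKO libraries were the higher ones for 7 of the 17 genes (41.2%, against 19.8% of all genes tested) and the lower ones for 2 (11.8%, against 18.8%). All 6 ATPases, encoded by Psmc1 to Psmc6, had positive estimates between 0.01 and 0.33 relative to WT. That count rests on single libraries and moved with the settings. With protein-coding genes only, 5 of the 6 ATPases and 12 of the 17 19S genes lay above the median of all genes. The numbers were the same with effective lengths. Without DKO replicate 1, 3 of the 6 lay above the median of all genes and 10 of the 17 19S genes did, and without WT replicate 1 the numbers were 3 and 8, against 6 and 13 with all libraries.

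Psmc2 (ENSMUSG00000028932; chromosome 5, 21785283 to 21803787, plus strand), which encodes the ATPase Rpt1, had 30.8 and 28.9 CPM in DKO and 25.9 and 23.8 CPM in WT. The groups did not overlap, and the log2 fold change was 0.26 ± 0.14 (SE) with an unadjusted p of 0.0965. Psmc1, which encodes the ATPase Rpt2, had 30.8 and 28.7 CPM in DKO and 19.6 and 27.7 CPM in WT, a log2 fold change of 0.33 ± 0.18 (SE). Psmd4, which encodes the ubiquitin receptor Rpn10 and was the most abundant 19S gene per length, had 73.5 and 71.3 CPM in DKO and 57.1 and 77.8 CPM in WT. Both DKO values of Psmd4 lay between the WT values. Psmd1, which encodes the large scaffold subunit Rpn2, had 30.6 and 31.4 CPM in DKO and 38.01 and 32.6 CPM in WT. It was the base gene with a negative estimate, at −0.19 ± 0.14 (SE), and its DKO libraries were the lower ones.

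In the lid, Psmd14 (ENSMUSG00000026914; chromosome 2, 61711694 to 61800376, plus strand) encodes Rpn11, the enzyme that cuts ubiquitin chains off the substrate. It had 22.0 and 21.5 CPM in DKO and 24.2 and 25.8 CPM in WT, and the DKO libraries were the lower ones without overlap. The log2 fold change was −0.20 (95% interval −0.53 to 0.13) with an adjusted p of 0.788 by edgeR's quasi-likelihood test. The values of Psmd14 include transcripts that are not protein-coding. These took 17.7% and 10.8% of its counts in DKO and 33.6% and 26.6% in WT. Relative to the TMM-scaled library size, the main coding transcript of Psmd14 overlapped between the groups, so the lower order is that of the gene sum. Psmd7, which encodes Rpn8, the partner of Rpn11, had 29.0 and 27.2 CPM in DKO and 18.5 and 26.6 CPM in WT. Psmd12, which encodes the lid scaffold Rpn5, had 24.3 and 23.1 CPM in DKO and 15.3 and 22.5 CPM in WT. Psmd7 and Psmd12 had log2 fold changes of 0.32 and 0.33, and in both genes WT replicate 1 stood well below the other 3 libraries. Psmd6, which encodes Rpn7, had 16.7 and 15.4 CPM in DKO and 12.8 and 14.2 CPM in WT, also without overlap. Psmd8, which encodes Rpn12 and was the most abundant lid gene per length, had 31.3 and 33.1 CPM in DKO and 32.0 and 40.2 CPM in WT.

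The 11S activators open the gate of the core without using ATP. Psme1, which encodes PA28alpha, was the most abundant member of the whole set in CPM and per length. Psme1 (ENSMUSG00000022216) spans chromosome 14, 55578123 to 55581529, on the plus strand of GRCm38. It had 182 and 157 CPM in DKO and 129 and 212 CPM in WT, so WT replicates held both the lowest and the highest value. Relative to the median of the 14 expressed core subunits per length, it stood at 6.66 and 6.33 in DKO and 5.74 and 8.03 in WT. Psme3, which encodes the nuclear PA28gamma, had 37.4 and 37.4 CPM in DKO and 35.6 and 41.5 CPM in WT. The 4 genes of this group had log2 fold changes of −0.05 to 0.09, and all of their 95% intervals lay within 1.5-fold in both directions.

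Psme2 encodes PA28beta, the partner of PA28alpha, and Psme2b (ENSMUSG00000078153; chromosome 11, 48945354 to 48946190, minus strand) is a near copy of it. Their coding sequences in GENCODE M21 are both 717 bases long and differ at 5 bases, an identity of 99.3%. The stretch from coding position 424 to 543 is shown because it holds 3 of the 5 differences, in capitals. Within these coding sequences, reads of Psme2 and Psme2b can be told apart only by the differing bases. The transcripts of Psme2 also hold sequence outside this coding sequence that Psme2b does not share, by which reads can be assigned as well.
Psme2: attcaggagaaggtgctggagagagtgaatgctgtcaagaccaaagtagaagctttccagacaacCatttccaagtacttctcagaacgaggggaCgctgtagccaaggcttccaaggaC
Psme2b: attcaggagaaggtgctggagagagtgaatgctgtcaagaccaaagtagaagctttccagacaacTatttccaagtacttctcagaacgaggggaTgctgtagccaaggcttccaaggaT

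Psme2 had 39.3 and 36.0 CPM in DKO and 31.01 and 47.1 CPM in WT. Psme2b had 21.7 and 16.9 CPM in DKO and 18.5 and 17.6 CPM in WT. The division between them rests on the authors' estimation, since 78.4% of the 31-base words of Psme2b also occur in other genes, and the single values are uncertain. Taken as a pair, the genes summed to 61.0 and 52.9 CPM in DKO and to 49.5 and 64.7 CPM in WT. The share of the pair given to Psme2b was 35.6% and 31.9% in DKO and 37.3% and 27.2% in WT, so the groups overlapped in sum and in share.

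PA200, encoded by Psme4, is a large single-chain activator that is linked to the degradation of acetylated histones. Psme4 had 31.8 and 37.4 CPM in DKO and 30.6 and 35.0 CPM in WT, with a log2 fold change of 0.08 (95% interval −0.26 to 0.42). Psmf1 encodes PI31, known as an inhibitor of the core in the test tube and as an adaptor for its transport in neurons. It had 12.9 and 14.5 CPM in DKO and 14.8 and 13.4 CPM in WT. Both genes overlapped between the groups.

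The assembly chaperones help to build the core and the 19S base and are absent from the finished particle. Per length, they stood at 0.06 to 0.84 of the median core subunit. Psmg4, which encodes PAC4 and was the highest of them per length, had 7.87 and 5.94 CPM in DKO and 7.21 and 9.80 CPM in WT. Psmg3, which encodes its partner PAC3, was the lowest, with 2.54 and 2.505 CPM in DKO and 1.15 and 2.86 CPM in WT. In both genes the DKO values lay within or across the WT range. Psmd10, which encodes gankyrin, a chaperone of the 19S base, had 6.92 and 7.79 CPM in DKO and 5.34 and 6.50 CPM in WT. Psmd9, which encodes p27, another chaperone of the 19S base, had 5.86 and 4.55 CPM in DKO and 7.36 and 5.81 CPM in WT. Psmd10 was the only chaperone of the 7 whose groups did not overlap, and its log2 fold change of 0.32 had an adjusted p of 0.81 by edgeR's quasi-likelihood test. Of the 7, 14.3% were thus higher in DKO, against 19.8% of all genes tested, and 0 were lower, against 18.8%. Psmc3ip, which is no proteasome gene, had 2.72 and 1.30 CPM in DKO and 2.38 and 3.47 CPM in WT, and without it the median log2 fold change of the set stayed at 0.04.

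The spread within the WT group was wider than the difference between genotypes. Between the DKO libraries, 13 of the 49 tested members had a higher log2(CPM + 2) in replicate 2 than in replicate 1, with a median difference of −0.09, while 50.3% of all genes were higher there. Between the WT libraries, 39 of the 49 members were higher in replicate 2, and the median difference was 0.29. Over all genes tested that WT median was 0.01, and 51.4% were higher in replicate 2. WT replicate 1 was the lowest of the 4 libraries for 30 members, and WT replicate 2 the highest for 26. Relative to all genes, the median log2 fold change between genotypes was 0.05 with all libraries, −0.04 without DKO replicate 1 and 0.12 without DKO replicate 2. It was −0.12 without WT replicate 1 and 0.21 without WT replicate 2. The sign of the median thus changed with the library left out, in DKO as in WT, and no member was called in any of these 4 fits.

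**Figure D3:**
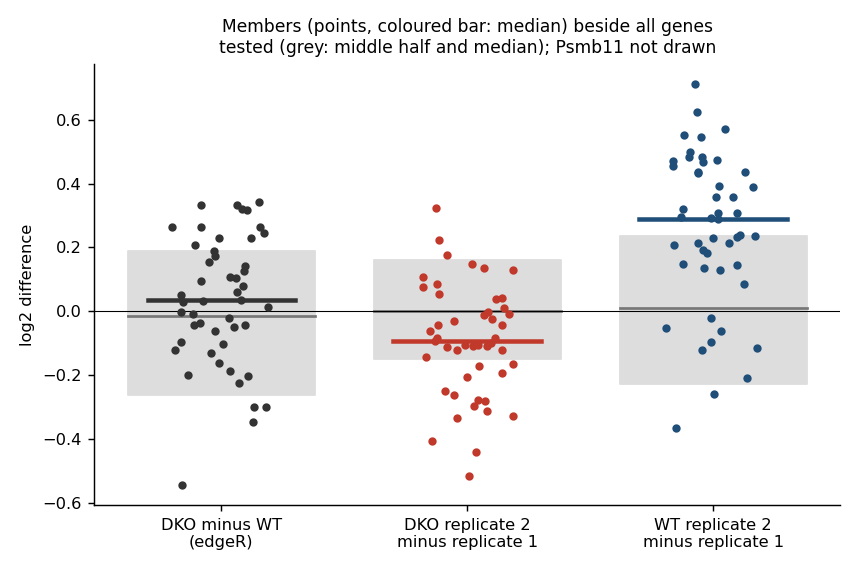
Log2 differences of the tested members between genotypes (left) and between the libraries of each genotype (middle and right, on the log2(CPM + 2) scale), with 1 point per gene (Psmb11 not drawn) and a coloured bar at the median; grey marks the quartiles and median of all genes tested. The WT pair is set off from 0, with a median of 0.29, while the difference between genotypes has a median of 0.04.

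Ratios within a library do not depend on the scale between libraries. The 3 inducible cutting subunits summed to 1.89 and 1.71 times the TPM of the 3 standard ones in DKO and to 1.97 and 1.86 times in WT. TPM are the authors' values, corrected for transcript length and scaled to the same total in each library. The difference in log2 ratio was −0.09, about the size of the pooled SD of 0.0862, and the groups overlapped. Psmb8 stood at 5.68 and 4.11 times Psmb5 in DKO and at 4.33 and 3.86 times in WT. Psmb9 stood at 0.688 and 0.780 times Psmb6 in DKO and at 1.03 and 0.743 times in WT. Both pairs overlapped between the groups.

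Of the 9 ratios computed, 2 kept the groups apart. Such separation was common: in CPM, 19.8% of all genes tested had both DKO libraries above both WT libraries and 18.8% had both below. Psmb10 stood at 2.08 and 1.55 times Psmb7 in DKO and at 2.13 and 2.41 times in WT, a log2 difference of −0.34 with a pooled SD of 0.231. The highest DKO ratio and the lowest WT ratio were 2.08 and 2.13, so the separation was narrow. The log2 difference was −0.55 without DKO replicate 1, −0.13 without DKO replicate 2 and −0.19 by summed counts. By counts the groups overlapped, so the separation of this ratio holds by TPM only. Transcripts that are not protein-coding took 33.5% and 31.4% of the counts of Psmb10 in DKO and 42.4% and 37.8% in WT. Their part in the TPM ratio was not tested. The summed 19S genes stood at 0.921 and 0.955 times the summed alpha and standard beta genes in DKO and at 0.867 and 0.901 times in WT. This log2 difference was 0.08 with a pooled SD of 0.0381, which is a 1.06-fold higher ratio in DKO. No test is given for these ratios, since an exact permutation of 2 libraries against 2 cannot go below 0.333.

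Ratios of regulators to the core overlapped between the groups. Psme1 and Psme2 together stood at 1.29 and 1.24 times the alpha ring in DKO and at 1.07 and 1.58 times in WT. Psme3 stood at 0.0831 and 0.0678 times Psme1 and Psme2 in DKO and at 0.0835 and 0.078 times in WT. Psme4 stood at 0.0286 and 0.0472 times the alpha ring in DKO and at 0.0503 and 0.0399 times in WT. The assembly chaperones stood at 0.273 and 0.243 times the alpha ring in DKO and at 0.243 and 0.340 times in WT. In the ratio of PA28 to the alpha ring, both DKO libraries lay between the WT libraries, as in the summed levels.

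**Figure D4:**
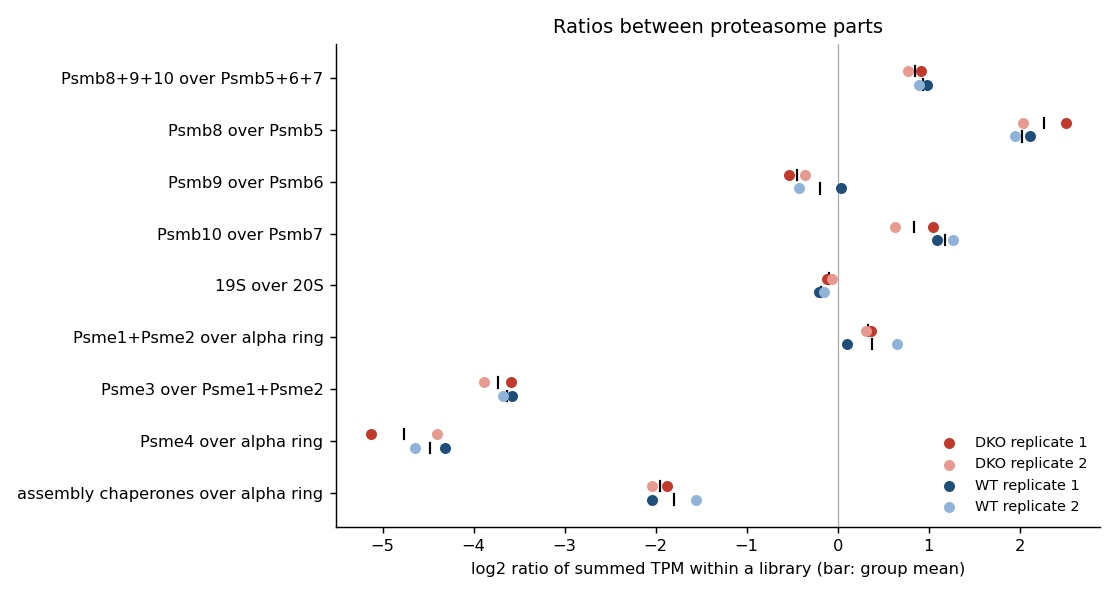
The 9 log2 ratios of summed TPM between parts of the proteasome, with 1 point per library (DKO above WT in each row) and a bar at the group mean. Psmb10 over Psmb7 is lower in both DKO libraries, 19S over 20S is higher in both, and the other 7 ratios overlap.

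Total RNA also holds transcripts of these genes that encode no full protein. The 50 genes have 242 transcripts in the files. Those annotated as protein-coding took 93.4% and 92.7% of the genes' estimated counts in DKO and 89.8% and 93.5% in WT. Transcripts with a retained intron took 3.73% and 4.30% in DKO and 5.29% and 2.73% in WT, so WT replicates again held both ends of the range. Transcripts annotated as targets of nonsense-mediated decay took 0.879% and 1.34% in DKO and 2.16% and 1.41% in WT. The remaining non-coding classes took 1.99% and 1.61% in DKO and 2.78% and 2.35% in WT. For the last 2 classes the DKO shares were below the WT shares, by 0.675 and 0.764 percentage points. The difference in decay targets was −0.445 percentage points without DKO replicate 1, −0.301 without WT replicate 1 and −1.05 without WT replicate 2. By TPM in place of counts the decay targets overlapped, at 1.47% and 2.92% in DKO and 4.21% and 2.81% in WT.

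Of the members, 34 had at least 100 estimated counts in every library. The share of counts on transcripts that are not protein-coding was lower in both DKO libraries than in both WT libraries for 8 of them (23.5%), against 18.6% of 4323 protein-coding genes with that depth. It was higher in both DKO libraries for 3 (8.82%, against 10.3%), namely Psma6, Psmb6 and Psme2. The members named in this paragraph were chosen after their values were seen. Psmb4 had 14.6% and 15.7% in DKO and 31.8% and 34.1% in WT, the widest gap of the 34. Psmd13, which encodes the lid subunit Rpn9, had 20.5% and 24.0% in DKO and 32.2% and 36.1% in WT. Psmd14 had 17.7% and 10.8% in DKO and 33.6% and 26.6% in WT. Psmb10 had 33.5% and 31.4% in DKO and 42.4% and 37.8% in WT. In these 4 genes the DKO libraries were the lower ones, and Psmb2, Psmc1, Psmd4 and Psme1 had smaller gaps in the same direction. In Psmb6 the order was the other way, with 34.9% and 33.2% in DKO and 30.4% and 28.6% in WT.

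The share in Psmd14 came mostly from 2 short transcripts without a coding sequence. Psmd14-202, of 560 bases, had under 1 estimated count in both DKO libraries, against 50.6 and 72.2 in WT. Psmd14-208, of 567 bases, had 60.2 and 44.8 in DKO and 59.0 and 0 in WT, so it was at 0 in WT replicate 2 only. The main coding transcript, Psmd14-201, had 306 and 414 estimated counts in DKO and 223 and 219 in WT. These counts are not scaled, and the TMM-scaled library sizes were 16906340 and 21558180 in DKO and 13866130 and 11529880 in WT. Their order is thus not an order of levels, and relative to these sizes Psmd14-201 overlapped between the groups. Of 9696 transcripts of any gene with at least 50 counts in both WT libraries, 13 (0.134%) were under 1 in both DKO libraries. In the other direction it was 36 of 12090 (0.298%). The mean fragment length implied by the effective lengths was 133 and 142 bases in DKO and 124 and 120 bases in WT, and its part in the division of counts between transcripts was not tested.

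**Figure D5:**
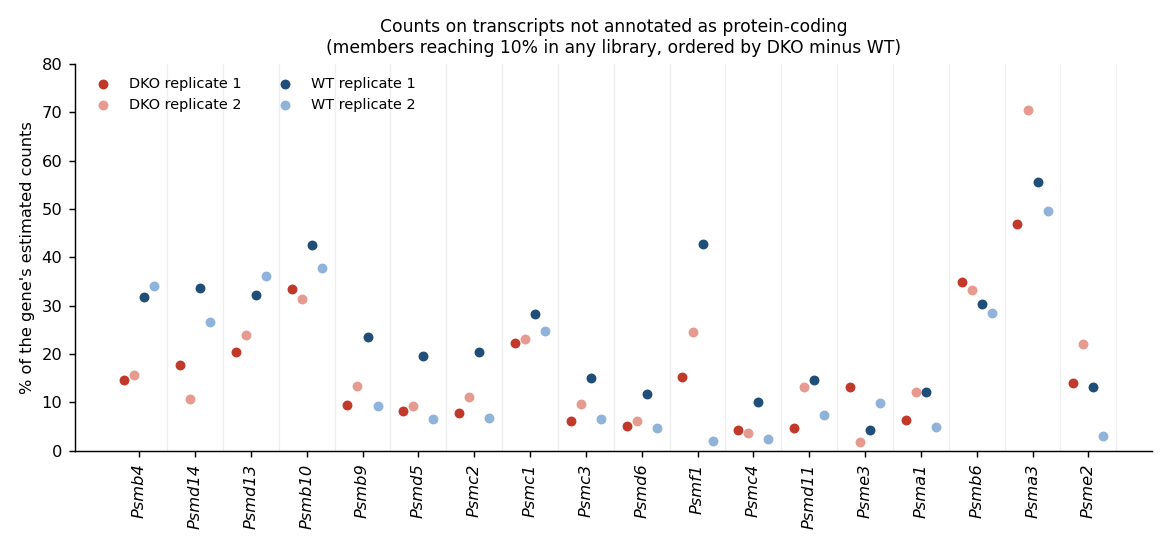
Share of each gene's estimated counts on transcripts not annotated as protein-coding, in percent, for members that reach 10% in any library; DKO points in red stand left of WT points in blue, and genes run from the most negative to the most positive difference. Psmb4, Psmd14, Psmd13 and Psmb10 have both DKO points below both WT points.

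Several members share sequence or ground with other genes. Over 10% of the 31-base words in the transcripts of 15 members also occur in other genes, and over 50% do for Psma5, Psmb5 and Psme2b. For 18 members the share was under 1%. On the genome, 24 members overlap another annotated gene, 19 of them one on the opposite strand. Psmb9 and Tap1 overlap head to head on chromosome 17, and Psmb8 lies 9.96 kb from Psmb9. The strand setting of the authors' estimation is not given in the sources used here. It is thus not known whether reads from stretches that such partners share were told apart by strand. Of the 31-base words of Psmb9, 4.79% also occur in Tap1.

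Genes that work with the proteasome gave no calls either. Of 24 tested cofactors and regulators, 0 were called by edgeR's quasi-likelihood test and 0 had an unadjusted p under 0.05, and their median log2 fold change was 0.01. Nfe2l2, which encodes the stress factor NRF2, had 41.1 and 32.4 CPM in DKO and 29.3 and 33.4 CPM in WT. Vcp, which encodes the p97 segregase that hands substrates to the proteasome, had 101 and 95.1 CPM in DKO and 85.3 and 89.2 CPM in WT. Ipo9, which encodes the importin that carries proteasomes into the nucleus, had 28.5 and 27.4 CPM in DKO and 26.03 and 22.5 CPM in WT. Vcp and Ipo9 did not overlap between the groups, with log2 fold changes of 0.17 and 0.20. Without overlap, 3 of the 24 were higher in DKO (against 19.8% of all genes tested), the third being Ubqln4, and 5 were lower (against 18.8%), namely Ecpas, Txnl1, Zfand2a, Ddi2 and Rad23b.

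Among the 6 ubiquitin and E1 genes, 0 were called by edgeR's quasi-likelihood test and 0 had an unadjusted p under 0.05. Uba1, which encodes the main E1 enzyme of ubiquitin activation, had 143 and 149 CPM in DKO and 115 and 126 CPM in WT. The DKO libraries were the higher ones, and the log2 fold change was 0.28 ± 0.13 (SE) with an adjusted p of 0.648 by edgeR's quasi-likelihood test. Ubb, a polyubiquitin gene, had 768 and 680.3 CPM in DKO and 546 and 739.9 CPM in WT. Rps27a, which encodes a fusion of ubiquitin with a ribosomal protein, had 497 and 413 CPM in DKO and 475 and 683 CPM in WT.

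In MHC class I antigen processing, 0 of 14 genes were called by edgeR's quasi-likelihood test, 0 had an unadjusted p under 0.05 and 8 estimates were positive. The peptide transporter genes Tap1 and Tap2 lie beside Psmb9 and Psmb8. Tap1 had 98.3 and 92.3 CPM in DKO and 69.3 and 89.2 CPM in WT. Tap2 had 81.6 and 76.4 CPM in DKO and 54.9 and 73.0 CPM in WT. Both had DKO libraries above WT libraries, with log2 fold changes of 0.27 and 0.31 and adjusted p-values of 0.711 and 0.687 by edgeR's quasi-likelihood test. They were the only 2 of the 14 genes that were higher without overlap (against 19.8% of all genes tested), and 0 were lower (against 18.8%). Tapbp, which encodes tapasin, had 112 and 101 CPM in DKO and 111 and 136 CPM in WT.

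Of 16 interferon-linked genes, 0 were called by edgeR's quasi-likelihood test, 0 had an unadjusted p under 0.05 and 10 estimates were positive. Irf1, which encodes a factor that drives the inducible subunits, had 84.6 and 65.3 CPM in DKO and 61.8 and 63.1 CPM in WT. Irf8 had 4.02 and 4.04 CPM in DKO and 1.59 and 3.30 CPM in WT, and Irgm1, an interferon-inducible GTPase, had 35.3 and 31.7 CPM in DKO and 25.9 and 31.05 CPM in WT. All 3 had DKO libraries above WT libraries, with adjusted p-values of 0.718, 0.711 and 0.749 by edgeR's quasi-likelihood test. Without overlap, 6 of the 16 were higher in DKO (against 19.8% of all genes tested) and 2 were lower (against 18.8%). DESeq2 called 0 genes of these 4 lists.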

How the data were processed

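The members and gene lists were chosen with earlier results of these data known. Per the submitters' processing notes, the authors used kallisto, and the builds listed are mm10 and GRCm38. Not given in the sources used here are its version, the strand setting and the annotation. Per the file headers, the deposited files hold expected counts (estimated counts) per transcript, TPM, in which the authors corrected for effective length, and the length and effective length in bases. Of 126782 transcripts, 125182 (98.7%) were joined to GENCODE M21 by identifier without version. The 1600 others held 0.822% to 0.852% of the counts and were left out. For each gene the estimated counts of its transcripts were added and then rounded.

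The genotype test was run in edgeR 4.0.16 under R 4.3.3 (filterByExpr, TMM, robust quasi-likelihood F test on genotype, Benjamini-Hochberg adjustment at 0.05). The filter left 12863 genes, 10733 of them protein-coding, with a common biological coefficient of variation of 0.2195. The functions were tested on simulated data. Intervals are 95%, and a log2 fold change is the DKO value minus the WT value. The floor of 3 counts amounts to 0.181 and 0.168 CPM of the library total in DKO and 0.2 and 0.216 CPM in WT. Alternatives used DESeq2 1.42.0, limma 3.58.1 on log2(TPM + 0.5) or log2(TPM + 0.1), other scalings and filters, effective lengths, and each library left out. By rule, values were given for Btg1 and Btg2 and for fixed catalytic, 11S and other members. To these came the highest, the lowest and the 2 smallest p-values in each group, 3 genes per list and the most abundant marker per cell type. The rule gave 56 genes, and further genes are named beside them.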

Additional observations from a re-analysis of the deposited data

How the results depend on the processing

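No member was called higher or lower under any alternative, with 39 to 49 members tested. Calls over all genes were 16 with the main settings, against 55 higher and 133 lower with DESeq2, 141 and 254 without the low-count filter, 35 and 16 with protein-coding genes only, 3 and 5 with effective lengths, and 0 and 2, 0 and 1, and 0 and 0 with the 3 limma fits. The median of all genes moved to 0.31, 0.37 and 0.13 in those limma fits. Same-numbered libraries did not deviate together (correlation −0.385), so the numbers were not taken to pair them. With the replicate block, 0 members and over all genes 53 higher and 90 lower were called. With the crossed pairing, chosen after seeing the data, 0 members and over all genes 137 higher and 386 lower were called.

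The polymerase III scale called 2 MHC class I genes (Calr and H2-K1) and 1 ubiquitin gene (Ubb) higher. Without WT replicate 1, 1 interferon-linked gene (Ifit3) was called lower. Leaving out 1 library at a time moved the median relative to all genes from −0.12 to 0.21 for all members, −0.13 to 0.22 for the 20S core, −0.11 to 0.23 for the inducible and thymic subunits, −0.088 to 0.21 for 19S, −0.25 to 0.18 for 11S and −0.20 to 0.29 for the chaperones. With limma it was −0.13 and −0.17 for the inducible and thymic subunits and −0.19 and −0.23 for the chaperones, where fewer genes were tested, and without a filter 0.29 for 19S and 0.27 for 11S. The log2 difference in the ratio of inducible to standard cutting subunits, −0.088 by TPM, turned to 0.081 by counts. By TPM, the classes of decay targets and other non-coding transcripts differed by −1.31 and −1.81 percentage points.

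Single genes turned direction relative to all genes, none of them called. The effective length offset gave −0.38 for Psmb4, 0.11 for Psme2, −0.17 for Psme4 and 0.000482 for Psmf1. The polymerase III scale gave 0.034 for Psmb5, 0.0015 for Psmb9 and 0.015 for Psme2, and protein-coding genes only gave −0.022 for Psme1. The 2 filtered limma fits gave −0.33 and −0.39 for Psmb4 and 0.14 and 0.11 for Psme2. Limma without a filter gave 0.032 for Pecam1, 0.14 for Psma7, 0.057 for Psmb1, −0.091 for Psmb11, −0.15 for Psmb4, 0.13 for Psmb5, 0.12 for Psmb7, 0.046 for Psmb9, 0.10 for Psmd8, 0.31 for Psme2, 0.12 for Psme3, −0.022 for Psme4, 0.074 for Psmf1 and 0.0060 for Tapbp. Leaving out 1 library at a time turned the direction of 20 named genes, with a range of −1.23 to 0.063 for Cd74, −0.53 to 0.19 for Itgam, −0.26 to 0.0072 for Pecam1, −0.26 to 0.073 for Psma7, −0.21 to 0.48 for Psmb2, −0.34 to 0.26 for Psmb5, −0.17 to 0.24 for Psmb6, −0.059 to 0.36 for Psmb8, −0.17 to 0.092 for Psmb9, −0.12 to 0.35 for Psmd4, −0.33 to 0.017 for Psmd8, −0.34 to 0.41 for Psme1, −0.34 to 0.29 for Psme2, −0.091 to 0.29 for Psme2b, −0.16 to 0.079 for Psme3, −0.030 to 0.20 for Psme4, −0.11 to 0.045 for Psmf1, −0.20 to 1.13 for Psmg3, −0.19 to 0.32 for Trac and −0.046 to 0.42 for Ubb. The cause was not tested.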
